A study of Saccharomyces cerevisiae with 6 samples.

Results

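RPS0A, RPS0B, RPS21A and RPS21B encode 2 proteins of the small ribosomal subunit of budding yeast, each from a pair of duplicated genes with an intron in either copy. The 4 genes were taken by name from a table of 239 genes with introns, and all 4 were present, as YGR214W, YLR048W, YKR057W and YJL136C. Each has 1 row and all 9 of its values, from an intron, an exon junction and an exon feature in 3 replicates. In the RefSeq annotation of assembly R64 the copies of a pair lie on different chromosomes, RPS0A between RTA1 and RSM27, RPS0B between FRE8 and MLO50, RPS21A between TRM2 and GLG1, and RPS21B between YJL136W-A and LCB3.

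Rps0 is the yeast counterpart of the human protein RPSA, also called the laminin receptor precursor, and Rps21 sits beside it on the solvent side of the small subunit. Yeast cells short of Rps0 or Rps21 fail late in small subunit assembly, at the cytoplasmic cleavage that turns 20S pre-rRNA into 18S rRNA. Ribosomal protein transcripts make up a large part of all the introns that a growing yeast cell removes, and the copies of a pair make nearly the same protein, so a cell can draw on either copy.

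The study used 2-colour splicing microarrays. The tested strain carried the S2197F form of PRP8, the gene of the protein at the heart of the spliceosome, and the strain it was set against carried wild type PRP8. In either strain the chromosomal PRP8 gene was deleted and the plasmid copy, on a HIS-marked centromeric plasmid, was the PRP8 gene present, so wild type cells also lived on a plasmid gene. Cultures were brought to mid-log phase in rich medium at 37 °C (OD600 near 0.7), and 3 independent pairs of cultures were each hybridised on 2 arrays with the dyes exchanged, which gives n = 3. PRP8 itself was not analysed here.

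All values below are log2 ratios of S2197F to wild type, or differences between such ratios, so a positive value means more signal in S2197F. No source gives the base of the logarithms, which was taken as 2. Means are given ± the SE from limma, a linear model that borrows the spread of all features, and a feature passed when its adjusted p, over all features of its class, was under 0.05. The labels call the exon, intron and junction features total mRNA, pre-mRNA and mature mRNA. An intron feature also detects splicing intermediates and excised introns, so it does not measure unspliced transcripts alone.

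Intron signal rose in S2197F for 3 of the 4 genes, RPS0B, RPS21A and RPS21B, while RPS0A did not pass. All 12 intron values, 3 for each gene, were above 0, from 0.28 to 1.72. Of all 251 introns in the table, 23.5% rose and 0 fell, and among the 41 intron features of the other small subunit genes the share that rose was 41.5%. When each feature was tested on its own 3 values, without borrowing the spread of others, none of the 4 introns passed (0 calls), and no class difference of these genes did. In that test 3 of the 251 introns of the table passed, and no class difference of any row. Each of the 4 means lay above the median of all introns, 0.27.

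RPS0B had intron ratios of 1.72, 0.67 and 0.84 in replicates 1, 2 and 3. Replicate 1 stood far above the other two, and the SD of 0.56 was the largest of the 4 genes. The mean was 1.08 ± 0.22, a 2.11-fold rise (95% interval 1.47 to 3.02, adjusted p = 0.021). It ranked at position 8 among the 251 introns. Without replicate 1 the mean was 0.75, and the call was kept (adjusted p = 0.0196), but without replicate 2 it was lost (mean 1.28, adjusted p = 0.13). In the fit without replicate 2 only 2 of 245 introns of the table passed.

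RPS0A, the other copy, had 0.47, 0.71 and 0.28. Here replicate 2 was the highest, and no replicate reached the mean of RPS0B. The mean of 0.48 ± 0.16 (1.40-fold, 95% interval 1.07 to 1.82) had an unadjusted p of 0.019 and did not pass (adjusted p = 0.067). It passed only when each replicate was centred on the median of its exon features (0.62, adjusted p = 0.019).

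RPS21A had intron ratios of 0.98, 0.67 and 0.84, within a narrow range. Its intron rose 1.78-fold (0.83 ± 0.16, 95% interval of the fold 1.38 to 2.29, adjusted p = 0.021), at position 21 among all introns. The call was lost without replicate 2 (0.91, adjusted p = 0.13), a fit in which 2 of 245 introns of the table passed. RPS21B had 0.55, 0.64 and 0.46, the closest replicates of the 4 genes, with an SD of 0.09. Its intron rose 1.46-fold (0.55 ± 0.15, 95% interval of the fold 1.14 to 1.87, adjusted p = 0.042). Leaving out any 1 replicate ended this call, with a mean of 0.55, 0.50 or 0.60 and an adjusted p of 0.101, 0.213 or 0.065 without replicate 1, 2 or 3.

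**Figure D1:**
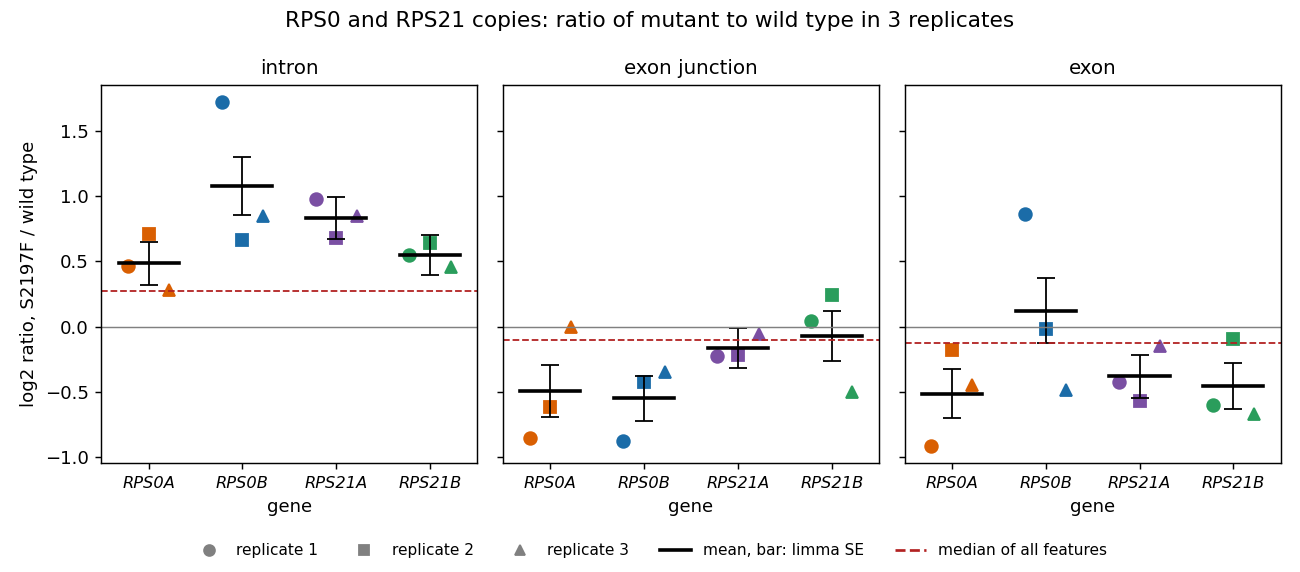
Log2 ratio of S2197F to wild type for the intron, junction and exon feature of each gene, with a point per replicate, the mean as a black line and limma's SE as the bar. The dashed line is the median of all features of the class: all 12 intron points lie above 0, 10 of 12 junction points and 11 of 12 exon points lie below 0, and RPS0B in replicate 1 stands high for intron and exon.

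In order of intron ratio the genes ran RPS0B, RPS21A, RPS21B and RPS0A. The difference between RPS0B and RPS21A, 0.24 ± 0.43 (SD, n = 3), was smaller than its spread, with 0.74, -0.01 and 0.0002 in the 3 replicates. RPS21A exceeded RPS21B in 3 of 3 replicates, by 0.28 ± 0.22 (SD, n = 3), which is tested below among the gene pairs. RPS0A and RPS21B differed by -0.07 ± 0.13 (SD, n = 3), again within the spread. In replicate 2 all 4 genes lay between 0.64 and 0.71, whereas in replicate 1 they ran from 0.47 to 1.72.

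In the ranking of all introns the neighbours of these genes were close in value. RPS0B (1.08) came between the second row of RPL7B (1.14) and EPT1 (1.06). RPS21A (0.83) stood between NOG2 and ECM33, RPS21B (0.55) between RPL34A and RPL19A, and RPS0A (0.48) between RPL13B and MAF1, in each case within 0.01 of either neighbour. None of these gaps exceeded the SDs over replicates of the genes concerned.

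Junction signal, which follows spliced mRNA, did not pass for any of the 4 genes (0 calls). Of all 248 junctions in the table, 0.403% passed. Unadjusted p was under 0.05 for 2 of the 4, RPS0A and RPS0B, and for 29 features below and 4 above 0 among the 248, and no alternative brought any of the 4 past the threshold. Of the 12 junction values 10 were below 0.

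RPS0A had junction ratios of -0.86, -0.62 and -0.004, the last close to no difference. Its mean was -0.49 ± 0.20 (unadjusted p = 0.039, adjusted p = 0.33). RPS0B had -0.88, -0.43 and -0.35 and a mean of -0.55 ± 0.17 (unadjusted p = 0.013, adjusted p = 0.21). All 6 values of the RPS0 pair were negative, and the means stood at positions 228 and 235 from the top of 248, against a median of -0.10 for all junctions.

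RPS21A had -0.22, -0.22 and -0.05, with a mean of -0.16 ± 0.15 (adjusted p = 0.72). RPS21B had 0.04, 0.24 and -0.50, which do not share a sign, and a mean of -0.07 ± 0.19 (adjusted p = 0.89). The 95% intervals of the 2 means, -0.52 to 0.19 for RPS21A and -0.51 to 0.36 for RPS21B, include moderate losses as well as gains. The mean of the RPS0 copies was -0.87, -0.52 and -0.17 in the 3 replicates, and that of the RPS21 copies -0.09, 0.01 and -0.28. RPS0 minus RPS21 was therefore -0.77, -0.53 and 0.10 (-0.40 ± 0.45, SD, n = 3), a difference within its spread.

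**Figure D2:**
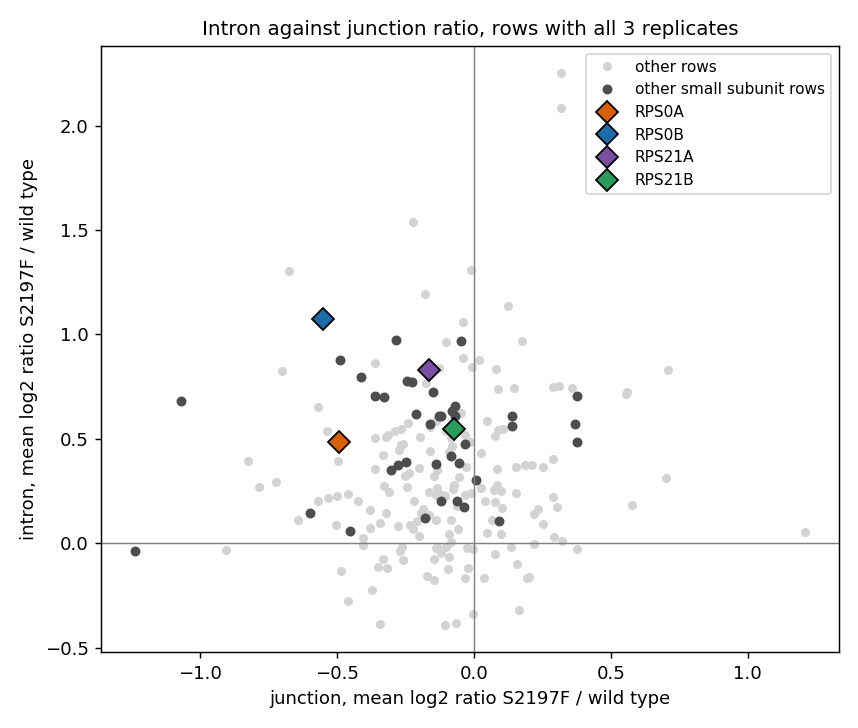
Mean intron ratio (vertical axis) against mean junction ratio (horizontal axis), both log2 of S2197F to wild type, for the 214 rows with all 3 replicates of both features. The diamonds are the 4 genes: RPS0A and RPS0B lie left of RPS21A and RPS21B, at junction ratios of -0.49 and -0.55, and all 4 lie above 0 for the intron and below 0 for the junction.

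Exon signal, which follows total mRNA, did not pass for any of the 4 genes (0 calls by limma) or for any gene of the table (0% of 234). Unadjusted p was under 0.05 for 3 of the 4 genes, and for 26 features below and 4 above 0 in the table. RPS0A had -0.92, -0.18 and -0.45, with a mean of -0.52 ± 0.19 (1.43-fold lower, adjusted p = 0.34). RPS21A had -0.43, -0.57 and -0.15, with a mean of -0.38 ± 0.16 (adjusted p = 0.39). RPS21B had -0.60, -0.09 and -0.67, with a mean of -0.45 ± 0.18 (adjusted p = 0.38). These 3 genes were below 0 in 3 of 3 replicates, and their means lay below the median of all exons, -0.12.

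RPS0B was the gene with mixed signs, at 0.86, -0.02 and -0.48, and a mean of 0.12 ± 0.25 (adjusted p = 0.83). Replicate 1 sets the sign of this mean, which was -0.25 without it. The same replicate gave the highest intron value of the gene, while its junction value was the lowest.

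A constant added to all features of a replicate cancels in differences between features of the same gene. How the authors normalized the values is not given in the sources used here, so other forms of centring may not cancel. These differences set the intron against the spliced and the total transcript. Intron minus exon rose for all 4 genes, by 0.96 to 1.21, which is 1.94-fold to 2.32-fold. Of all 246 rows in the table, 29.3% rose and 0 fell. Among the other small subunit genes 23 of 41 features rose (56.1%). Intron minus junction rose for 3 of 4 genes, against 21.1% of 247 rows of the table and 13 of 40 features of the other small subunit genes (32.5%).

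For intron minus exon RPS0A had 1.38, 0.89 and 0.72 (1.00 ± 0.24, adjusted p = 0.0050), and RPS0B had 0.86, 0.68 and 1.33 (0.96 ± 0.24, adjusted p = 0.0060). The copies of RPS0 thus had nearly the same mean here, whereas their intron means were 0.48 for RPS0A and 1.08 for RPS0B, and their exon means -0.52 for RPS0A and 0.12 for RPS0B. By replicate, RPS0A was the higher copy in replicates 1 and 2 and RPS0B in replicate 3. The copy difference on this measure was not tested. RPS21A had 1.40, 1.24 and 0.99 (1.21 ± 0.23, adjusted p = 0.0013), and RPS21B had 1.15, 0.74 and 1.12 (1.00 ± 0.23, adjusted p = 0.0044). Every replicate of every gene exceeded the table's median of 0.38. Without replicate 1, however, 0 of the 4 passed (means of 0.81 to 1.12, adjusted p = 0.077 for each), and no row of the table did, whereas all 4 passed without replicate 2 and without replicate 3. In the table, 45 of 240 rows rose without replicate 2 and 57 of 246 without replicate 3.

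For intron minus junction RPS0B had 2.60, 1.09 and 1.19, and its mean of 1.63 ± 0.29 (3.09-fold, adjusted p = 2.7e-05) was at position 6 of 247. RPS21A had 1.20, 0.89 and 0.90 (1.00 ± 0.28, adjusted p = 0.0063), and RPS0A had 1.32, 1.33 and 0.28 (0.98 ± 0.29, adjusted p = 0.0091). RPS21B, at 0.51, 0.40 and 0.96, did not pass (0.62 ± 0.28, adjusted p = 0.095). In this fit the variances were pulled strongly to a common value, with 57.2 prior degrees of freedom, so the SEs hardly carry the spread of a single gene: the SD over replicates was 0.84 for RPS0B and 0.18 for RPS21A. RPS0B alone passed without replicate 1, RPS0B and RPS21A without replicate 2, and none of the 4 (0 calls) without replicate 3. In the table, 33 of 221 rows rose without replicate 1, 36 of 214 without replicate 2 and 2 of 240 without replicate 3.

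Junction minus exon compares the spliced with the total transcript and did not pass for any of the 4 genes (0 calls), nor for any row of the table (0% of 244; unadjusted p was under 0.05 for 5 rows above and 6 below 0, none of them in these genes). RPS21A (0.22 ± 0.20) and RPS21B (0.38 ± 0.21) were above 0 in 3 of 3 replicates. RPS0A had 0.06, -0.43 and 0.44. RPS0B had -1.74, -0.41 and 0.14, a mean of -0.67 ± 0.35 (adjusted p = 0.69) that replicate 1 dominates, and -0.14 without it.

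**Figure D3:**
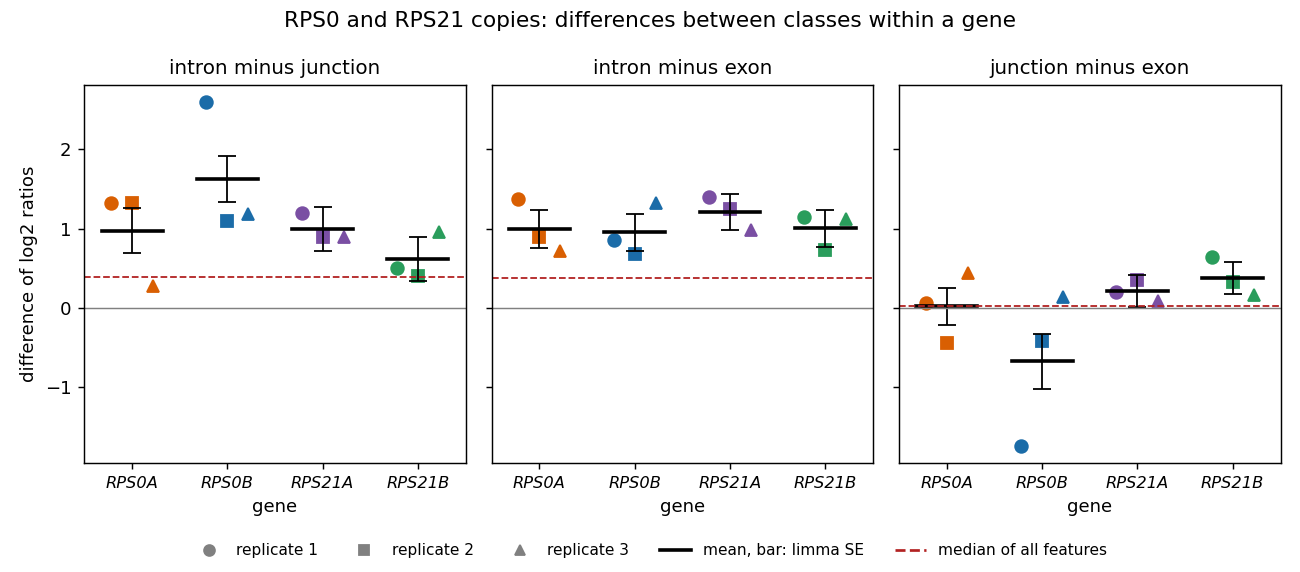
Differences of log2 ratios between 2 features of the same gene, with a point per replicate, the mean as a black line, limma's SE as the bar and the median of all rows dashed. All 12 points of intron minus exon lie between 0.68 and 1.40, whereas RPS0B in replicate 1 stands apart for intron minus junction (2.60) and junction minus exon (-1.74).

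The copies of each pair were then set against each other. Differences of copy A minus copy B were fitted together over all pairs of gene names ending in A and B with 1 row per copy, 45 pairs in all. None passed in any class (0% of 44 intron, 43 junction and 45 exon differences by limma, where unadjusted p was under 0.05 for 3, 1 and 1 pairs above and 2, 2 and 1 below 0). The sources used here do not say whether the probes tell the copies of a pair apart. The values of the copies were not identical in any class for RPS0 or RPS21.

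RPS0A minus RPS0B was -1.25, 0.04 and -0.57 for the intron. The mean of -0.59 ± 0.26 was at position 5 in size of the 44 differences, but its spread was as large (SD 0.65) and it did not pass (unadjusted p = 0.059, adjusted p = 0.35, 95% interval -1.21 to 0.03). As a fold of RPS0A over RPS0B the interval runs from 0.431 to 1.02. Without replicate 1 the mean was -0.26, and without replicate 2 it was -0.91 (adjusted p = 0.078). For the junction the copies differed by 0.06 ± 0.19 (0.02, -0.19 and 0.34, 95% interval -0.40 to 0.51). For the exon the difference was -0.64 ± 0.35 (95% interval -1.46 to 0.18, adjusted p = 0.62), with -1.78, -0.17 and 0.04 in the 3 replicates. It was the lowest of the 45 exon differences, -0.065 without replicate 1 and -0.97 without replicate 3.

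RPS21A minus RPS21B was 0.43, 0.03 and 0.39 for the intron, above 0 in 3 of 3 replicates. The mean of 0.28 ± 0.19 did not pass (adjusted p = 0.53, 95% interval -0.16 to 0.72). The junction difference was -0.09 ± 0.23 (95% interval -0.63 to 0.44) and the exon difference 0.07 ± 0.23 (95% interval -0.47 to 0.62), either with mixed signs over the replicates. For intron minus junction RPS0A minus RPS0B was -1.27, 0.23 and -0.91 (-0.65 ± 0.37, adjusted p = 0.59), and the mean was -0.34 without replicate 1 and -1.09 without replicate 2. RPS21A minus RPS21B was 0.69, 0.49 and -0.06 on the same measure (0.37 ± 0.32, adjusted p = 0.59), with a mean of 0.21 without replicate 1 and 0.59 without replicate 3. These intervals are wide, and they do not show that the copies responded alike.

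For scale, the median size of an intron copy difference over the 44 pairs was 0.21. Among the other pairs with large ones were RPS14A minus RPS14B (-0.91 ± 0.28, adjusted p = 0.19) and RPS19A minus RPS19B (-0.87 ± 0.24, adjusted p = 0.17). Both kept 1 sign in 3 of 3 replicates and did not pass. RPS21 stood at position 16 of 44 in size.

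**Figure D4:**
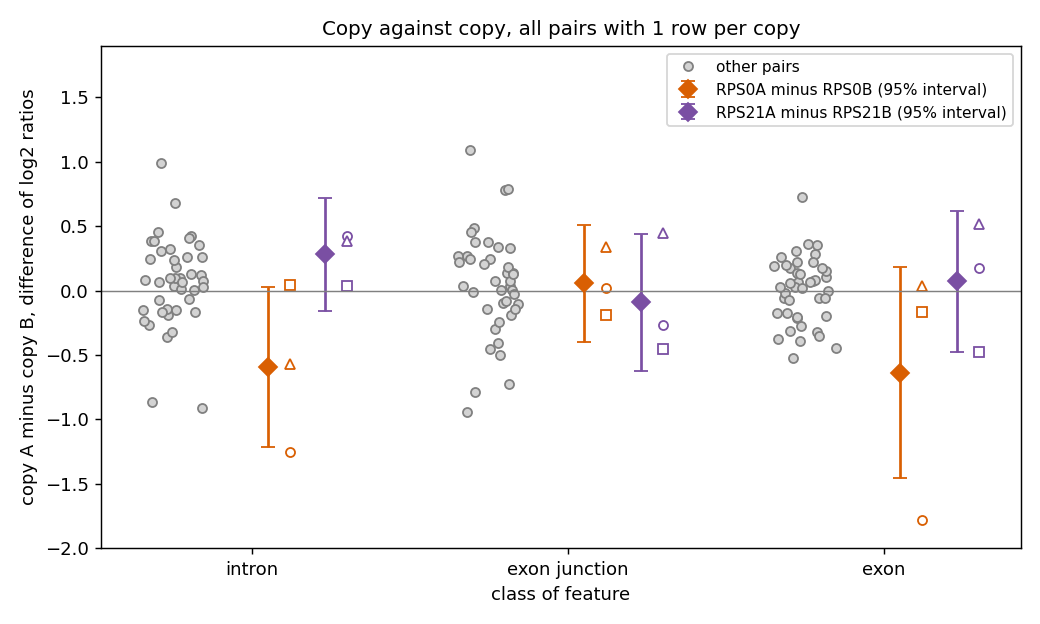
Copy A minus copy B, as a difference of log2 ratios, for the intron, junction and exon features. Grey points are the means of the other pairs, diamonds with bars are the means and 95% intervals of the RPS0 and RPS21 pairs, and the open symbols beside them are replicates 1 (circle), 2 (square) and 3 (triangle). Every interval of the 2 pairs includes 0, and replicate 1 of RPS0 lies lowest for intron (-1.25) and exon (-1.78).

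Profiles over all 9 values were compared by Euclidean distance with the 209 other complete rows. The nearest rows to RPS21A were the first row of RPL7B (distance 0.45), RPL6A (0.68) and RPS16A (0.68). Nearest to RPS21B were RPL43A (0.63), RPL33B (0.73) and RPS11B (0.74). RPS0A was nearest to COX4, RPS25B and RPL6A (0.87 to 0.92) and RPS0B to RPS7B, RPS19B and RPS13 (1.17 to 1.21). All but COX4, a subunit of cytochrome oxidase, are ribosomal protein genes, which are also common among the rows compared. The own copy was farther off: at a distance of 1.16, RPS21B was at position 40 from RPS21A and RPS21A at position 33 from RPS21B, and at a distance of 2.29, RPS0B was at position 184 from RPS0A and RPS0A at position 92 from RPS0B. Most of the RPS0 distance came from replicate 1, where RPS0A minus RPS0B was -1.78 for the exon and -1.25 for the intron. All rows share the same arrays, so these distances describe likeness and nothing more.

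Other small subunit genes gave the setting for these values. Their 41 intron features, from 40 genes, had a median of 0.57, against 0.69 for the 4 genes and 0.27 for all introns, and 17 rose and 0 fell. Their exon median was -0.23 over 40 features, against -0.42 for the 4 genes, with 0 calls by limma and 10 lower at an unadjusted p under 0.05. Their junction median was -0.12 over 40 features, against -0.33 for the 4 genes, with 1 feature lower. That feature is the second row of RPS22B.

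A shorter list held genes of 4 other proteins known in yeast to act in the later steps of small subunit maturation, Rps10, Rps18, Rps19 and Rps26, each with both copies. Of these 8 introns 3 rose: RPS19B (0.97 ± 0.19, adjusted p = 0.021), RPS18A (0.68 ± 0.18, adjusted p = 0.037) and RPS26B (0.56 ± 0.17, adjusted p = 0.049). The 5 that did not pass ran from 0.11 ± 0.17 for RPS19A to 0.80 ± 0.27 for RPS10B. The share that rose was 37.5%, beside 41.5% for the other small subunit genes, these 8 included, and 23.5% for all introns. No junction (0 of 7) or exon (0 of 8) of the list passed by limma, with 2 junctions and 3 exons lower at an unadjusted p under 0.05. Intron minus exon rose for 7 of 8, with RPS10A (0.57 ± 0.24, adjusted p = 0.075) as the exception, beside 4 of 4 for the RPS0 and RPS21 genes. The shares for this difference were 87.5% on the list, 56.1% for the other small subunit genes and 29.3% for all rows. Intron minus junction rose for 3 of 7, namely RPS18A (1.75 ± 0.30), RPS19B (1.26 ± 0.28) and RPS10B (1.21 ± 0.29). Here the shares were 42.9%, 32.5% and 21.1%, in the same order.

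In the values as deposited, exon features had medians of -0.15, -0.07 and -0.19 in the 3 replicates, introns 0.22, 0.29 and 0.38, and junctions -0.21, -0.08 and -0.14. The 12 intron values of the 4 genes exceeded the intron median of their replicate with 1 exception, RPS0A in replicate 3 (0.28). The values per gene are ratios, so levels of RNA are not reported.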

How the data were processed

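Per the labels' protocols, RNA was extracted with hot phenol, cDNA was made with random primers and divided between Cy3 and Cy5, and each array was analysed with its dye flip, giving 1 value per biological replicate. The log2 ratios used are those the authors deposited, for 253 rows. The labels and headers do not say how spots were measured, corrected, filtered and normalized (not given in the sources used here). Base 2 was assumed because the largest deposited single-array log2 ratio is 16.61, the log2 of 100000; those 9216 spots carry no gene names and were not used otherwise. The 6 arrays are pairs with the dyes exchanged, so the number of biological replicates, 3, limits the precision.

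Identical features were counted once. Features with at least 2 replicates were tested against 0, two-sided, with limma 3.58.1 in R 4.3.3, the 3 classes in 1 fit, with Benjamini-Hochberg adjustment within a class. Class differences and copy differences had fits of their own over all rows or pairs; the copy differences of the 3 classes shared 1 fit. With 3 replicates the smallest two-sided p of an exact sign-flip test is 0.25, so single differences are given with SDs.

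The genes, lists and tests were chosen with earlier results of these data known. Genes outside the 4 were named by rule: the 3 nearest rows by distance, the neighbours in intron rank, the 3 largest other intron copy differences (of which 1 is not reported here), and those of the short list past a test, with its extremes. Alternatives left out a replicate, required 3 values, changed the variance prior, centred on exon medians, fitted classes apart or used ribosomal protein pairs only.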

Additional observations from a re-analysis of the deposited data

How the results depend on the processing

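The 32 values of the 4 genes and their copy differences were recomputed under the alternatives, 224 comparisons in all, of which 191 kept direction and side of the threshold, 25 lost the call, 1 gained it and 7 changed sign. The number of the 4 genes that passed ranged, over the fits without 1 replicate, from 0 to 2 for introns (0 without replicate 2), from 0 to 2 for intron minus junction and from 0 to 4 for intron minus exon. With no moderation, which leaves each feature 2 degrees of freedom, 0 passed in each of these (adjusted p from 0.16 to 0.32 for the calls lost). It left 3 introns of the whole table and no class difference past the threshold, and the cause was not tested. Without replicate 2, 2 introns of the whole table passed, and with centring on exon medians 91 did. No copy difference of the 2 pairs passed under any alternative (0 calls). Signs that turned were all of values that did not pass: the RPS21B junction (-0.23 to 0.14 over the fits without 1 replicate, 0.063 after centring on exon medians), the RPS0B exon (-0.25 to 0.42, negative without replicate 1), RPS0A junction minus exon (-0.19 to 0.25, negative without replicate 3), the junction copy differences of RPS0 (-0.084 to 0.18, negative without replicate 3) and RPS21 (-0.36 to 0.091, positive without replicate 2), and the exon copy difference of RPS21 (-0.15 to 0.35, negative without replicate 3); the cause was not tested. Each ratio sets a culture of S2197F against its own wild type culture, so every fit here is already paired by culture.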
